A study of Mus musculus with 12 samples.

Results

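The respiratory chain and the ATP synthase of the inner mitochondrial membrane were followed through 87 nuclear genes of the mouse liver, chosen by symbol from the array's platform annotation. They were the genes whose symbol began with Ndufa, Ndufb, Ndufc, Ndufs or Ndufv, with Sdha, Sdhb, Sdhc or Sdhd, with Uqcr, with Cox4, Cox5, Cox6, Cox7 or Cox8, or with Atp5, each read from the single-symbol probe set with the highest mean. They stood among 12393 genes with such a probe set. Of the 87, 34 were assigned by symbol to complex I, 4 to complex II, 8 to complex III, 15 to complex IV and 17 to the ATP synthase (complex V), and the remaining 9 encode assembly factors or a factor outside the finished complexes. Ndufa4 was kept with complex I by its symbol, although its product is now placed in complex IV.

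The chain passes electrons from NADH and succinate to oxygen. Complex I oxidises NADH, complex II oxidises succinate, both reduce ubiquinone, complex III passes the electrons to cytochrome c, and complex IV hands them to oxygen. The proton gradient that complexes I, III and IV build drives the ATP synthase. In the hepatocyte the chain is a known target of the reactive metabolite of acetaminophen (APAP), and complexes I and III are known sources of the superoxide whose products the thioredoxin system helps to remove.

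The livers came from male C57BL6/J mice aged 8 weeks, in 4 groups of 3. Mice 8, 9 and 10 were wild-type and received saline (PBS). Mice 12, 13 and 14 were wild-type and received APAP at 100 mg/kg by intraperitoneal injection. Mice 4, 5 and 16 were txnrd1 liver-null and received saline, and mice 2, 3 and 17 were txnrd1 liver-null and received APAP at the same dose. The liver-null mice carry a conditional allele of txnrd1 (thioredoxin reductase 1) that the albCre transgene, driven by the hepatocyte's albumin promoter, disrupts, so that liver cells which do not make albumin keep an intact gene. Liver RNA was taken at 8 h and hybridised to 1 Affymetrix array per mouse, and values are log2 values from RMA, in which a difference of 1 is a doubling.

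On these arrays Txnrd1 read higher, not lower, in the livers labelled liver-null, by 0.75 on the log2 scale averaged over treatments (SE 0.09, limma adjusted p = 0.000858, 6 arrays against 6). This is the value of 1 probe set, which read 9.43 to 10.58. The gene's 2 other probe sets read 1.33 to 2.06, near background, and with the mean over all 3 the difference was 0.19 and was no longer called (adjusted p = 0.0867). The files do not say where in the transcript its probes lie, so this value does not check the labels, and "liver-null" below stands for the label. The 12 arrays had medians of 2.91 to 2.99. In each group 1 array (mice 10, 14, 16 and 17) had a lower upper quartile, 5.49 to 5.58 against 5.73 to 5.85 on the other 8 arrays, and these 4 are called the lower-quartile arrays. All 10 hepatocyte markers measured passed the filter on low values, and their summed level on the log2 scale was 15.88 to 16.04 over the 12 livers. Of 9 striated muscle markers only Myh6 passed it, and of 4 brown fat markers Ucp1 and Cidea did not pass, while Elovl3 (7.91 to 9.26) and Ppargc1b (3.85 to 4.95), which liver is also known to make, did.

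Promoter sequences were matched for 73 of the 87 genes, in 78 windows of 300 bases, from 250 bases before to 50 after the start (RefSeq, build GRCm38.p6). Nuclear respiratory factor 1 (NRF1, a different protein from the oxidant-responsive NRF2) is a classical activator of these genes, so its core letters, GCGCA and GCGC with any base between them, were searched on both strands like all motifs here. They were found in 23.1% of the members' windows and in 4.60% of all 32851 promoter windows. The ETS letters CCGGAAG, read by the factor GABP, were in 25.6% against 8.86%, the YY1 letters AAGATGGC in 11.5% against 2.75%, and the ERR letters TCAAGGTCA in 2.56% against 0.423%. The letters TGACNNNGC of the antioxidant response element were in 15.4% of the members' windows and 12.4% of all windows. A base could count toward more than 1 motif, the members' windows had a median GC content of 58.8% against 52.7%, and a match is a description of the letters only. The 3 stretches below, all upstream of the start and on the minus strand, show the NRF1 core in capitals in the flavoprotein and an anchor subunit of succinate dehydrogenase, whose levels are compared further on, and in the liver form of a complex IV subunit whose muscle form is described next.
Sdha, chr13:74350241-74350378: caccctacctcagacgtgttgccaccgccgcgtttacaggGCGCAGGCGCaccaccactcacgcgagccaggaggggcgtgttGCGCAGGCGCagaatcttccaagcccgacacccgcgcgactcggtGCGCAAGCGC
Sdhd, chr9:50603879-50603968: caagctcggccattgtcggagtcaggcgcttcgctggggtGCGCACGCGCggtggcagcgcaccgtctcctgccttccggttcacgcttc
Cox6a1, chr5:115349026-115349160: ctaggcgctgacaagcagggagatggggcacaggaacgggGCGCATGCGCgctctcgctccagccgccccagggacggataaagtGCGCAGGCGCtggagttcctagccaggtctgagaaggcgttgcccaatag
The Sdha stretch holds 3 copies of the core, the Sdhd stretch 1 and the Cox6a1 stretch 2.

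Tissue isoforms of complex IV gave the clearest pattern across members. The isoforms known from muscle, brown fat, testis or lung read near or below the arrays' medians in every liver, while their widely used or liver partners gave strong signal. Cox6a2, the heart and muscle partner of Cox6a1, read between 1.80 and 1.95 over the 12 arrays. Cox6b2 and Cox8c, known from testis, read 1.26 to 1.66 and 2.10 to 2.42, and Cox8b read 2.10 to 2.37. These 4 were the members that did not pass the filter on low values, which left 83 members among 8469 tested genes. Cox7a1, the muscle form, read 1.94 to 3.10 and Cox4i2, the lung form, 1.77 to 2.54. Both passed the filter, each on only 3 of the 12 arrays, without rising clearly above the arrays' medians. Their partners were bright on all arrays: Cox4i1 read 11.91 to 12.22, Cox6a1 12.61 to 12.97, Cox6b1 11.40 to 11.87, Cox7a2 11.20 to 11.45 and Cox8a 9.17 to 9.70. These ranges say which probe sets carried signal, and levels of different probe sets are not otherwise compared. Cox7c and Ndufb1, which encode ordinary subunits, and the assembly factor Ndufaf5 also read close to the arrays' medians (means of 2.53, 3.09 and 3.28), so their values carry little information, and 78 members had clear signal. A low reading, of an isoform or of another member, therefore does not show that its transcript was absent.

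The members with signal were steady from liver to liver. The median within-group SD of the 83 tested members was 0.0968 against 0.214 for all genes tested. Among genes with a mean of at least 10 it was 0.0846 for 57 members and 0.117 for 610 genes. ATP synthase subunits varied least, with a median SD of 0.0777, and assembly factors most, with 0.253. The assembly factors also read lower, with a median level of 6.73, and all genes with a mean under 10 had a median SD of 0.221. Atp5b, the catalytic beta subunit, spanned 0.129 from the lowest to the highest of the 12 livers, and Ndufaf4, a complex I assembly factor, spanned 1.39.

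**Figure D1:**
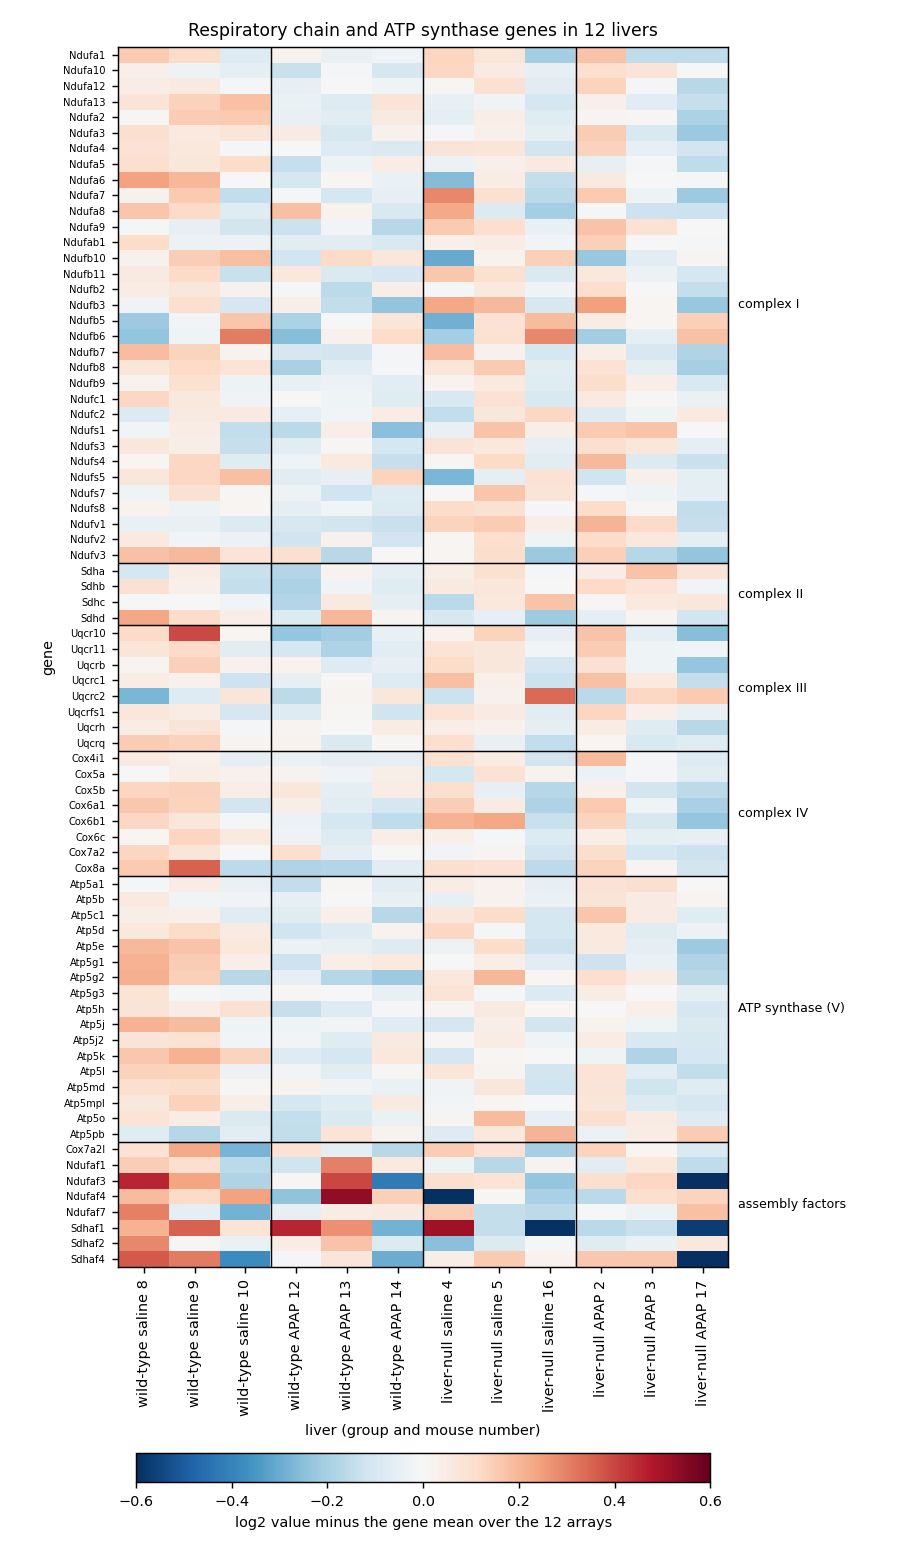
Log2 value of each of the 78 members with clear signal minus its mean over the 12 arrays, with genes in rows by complex and livers in columns by group; the colour scale ends at 0.6 and larger deviations take the end colour. Most squares are pale, the assembly factors at the bottom vary most, and the column of liver-null APAP mouse 17 is mostly blue.

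Livers differed from each other for many members at once. The mean deviation of the 83 members from their own 12-array means was highest in wild-type saline mice 9 and 8 (0.089 and 0.086) and in liver-null APAP mouse 2 (0.056). It was lowest in liver-null APAP mouse 17, at -0.098, and that liver was the lowest of the 12 for 26 members. Mouse 2, of the same group, was the highest of the 12 for 19 members. Over all genes tested the mean deviation was 0.069 and 0.068 in mice 9 and 8, 0.046 in mouse 2 and -0.078 in mouse 17. Much of these offsets was thus shared by the whole array. The share of all genes highest or lowest on each array was not computed, so the counts of 26 and 19 have no background. On the lower-quartile arrays the members' median was lower by 0.088 than on the other arrays, against 0.158 for all genes tested. In 26 of 83 members (31.3%, against 28.4% of all genes) the lower-quartile array was the lowest of its group in all 4 groups.

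There were 4 members that ran the other way, with the lower-quartile array highest in every group, against 6.10% of all genes: Ndufb5 and Ndufb6 of complex I, Uqcrc2 of complex III and the near-background Cox4i2. Ndufb6 read 10.57, 10.79 and 11.12 in wild-type saline mice 8, 9 and 10, and 10.56, 10.84 and 10.92 in wild-type APAP mice 12, 13 and 14. It read 10.61, 10.91 and 11.10 in liver-null saline mice 4, 5 and 16, and 10.60, 10.76 and 10.99 in liver-null APAP mice 2, 3 and 17. The groups overlapped throughout, and the spread inside each group was larger than any difference between group means.

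**Figure D2:**
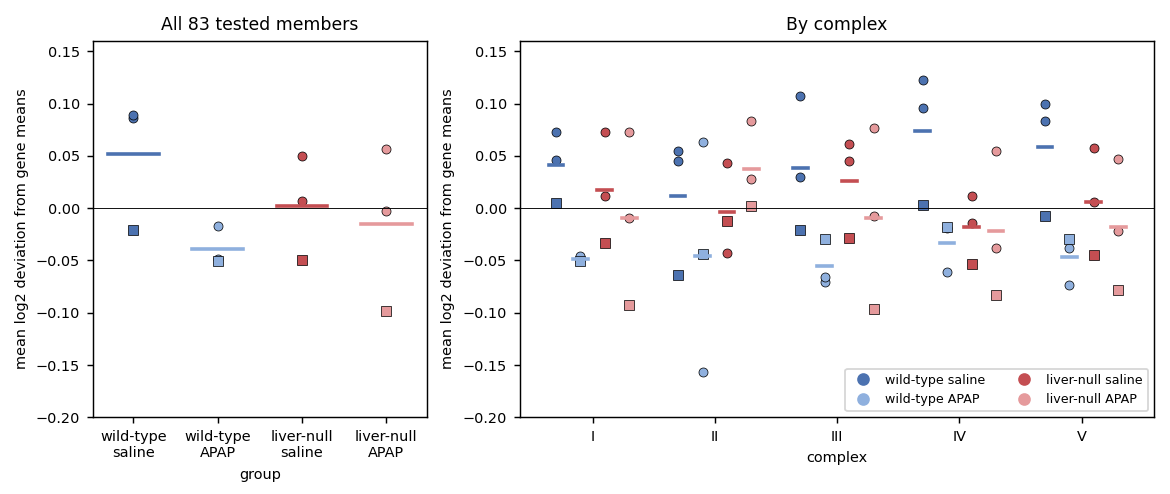
Mean log2 deviation of the tested members from their own 12-array means, for all 83 members (left) and by complex (right). Each point is 1 liver, squares are the lower-quartile arrays and lines are group means. Wild-type APAP livers lie between -0.050 and -0.017 over all members, and the other groups spread across zero.

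The first comparison asks whether loss of Txnrd1 in hepatocytes changes respiratory chain transcripts in unchallenged liver. In saline-treated mice no member passed the test: 0 of 83 members were called between liver-null and wild-type at an adjusted p under 0.05 (limma, Benjamini-Hochberg over all 8469 genes), where 0.638% of all genes were called. At an unadjusted p under 0.05 there were 4 members (Ndufa6, Sdhd, Cox7a1 and Ndufaf4, all lower), against 12.2% of all genes. The members' median log2 difference was -0.035 beside -0.028 for all genes, with 50 members negative and 33 positive (60.2% negative against 55.2% of all genes). With each array centred on its own median the members' median was 0.003 with 37 negative, so the direction of this shift depends on the scaling.

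In complex I the median difference was -0.009, and Ndufa6, an accessory subunit, had the largest. Ndufa6 read 10.18, 10.13 and 9.94 in wild-type saline livers and 9.67, 9.98 and 9.79 in liver-null saline livers. A liver-null mouse lay inside the wild-type range, and the difference was -0.27 (SE 0.11, adjusted p = 0.353). The flavin-carrying subunit Ndufv1, where NADH is oxidised, read 10.16, 10.16 and 10.13 in wild-type saline livers and 10.34, 10.36 and 10.25 in liver-null saline livers. These 3 livers were all above the wild-type ones, with a difference of 0.17 (SE 0.11, adjusted p = 0.633), and the gene's other probe sets gave 0.05 and 0.03. The core iron-sulfur subunits Ndufs1 and Ndufs3 differed by 0.09 and 0.04.

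Complex II held members of both directions. Sdhd, one of its membrane anchors, read 9.56, 9.44 and 9.37 in wild-type saline livers and 9.23, 9.28 and 9.11 in liver-null saline livers. The groups did not overlap, the difference was -0.25 (SE 0.11, adjusted p = 0.395), and the gene's other probe set gave 0.00. Sdha, the flavoprotein that oxidises succinate, read 10.26, 10.41 and 10.23 against 10.40, 10.45 and 10.36, an overlapping pair of groups with a difference of 0.10 (SE 0.10). Its other probe set read 9.81, 9.78 and 9.67 against 9.99, 10.01 and 9.86, without overlap, a difference of 0.20 (SE 0.11). Sdhb, the iron-sulfur subunit, and Sdhc, the other anchor, differed by 0.05 and 0.03.

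In complex III the largest difference was that of the scaffold subunit Uqcrc2, 0.17 (SE 0.15), while its partner Uqcrc1 differed by 0.05 and the Rieske protein Uqcrfs1 by 0.02. In complex IV it was the near-background Cox7a1, which read 3.10, 2.71 and 2.46 in wild-type saline livers and 1.94, 2.03 and 2.39 in liver-null saline livers. The groups did not overlap and the difference was -0.63 (SE 0.17, adjusted p = 0.133), the smallest adjusted p of any member in this comparison. With limma's array weights it was called, at -0.69 (adjusted p = 0.00236). That fit leaned on few livers, with weights of 4.63 for wild-type mouse 9 and 3.68 for liver-null mouse 5. The other saline arrays had weights of 0.36 to 0.83. Cox7a1 passed the filter on low values on only 3 of the 12 arrays. No liver-null liver read above 2.39, in saline or after APAP. It may thus have entered the test through the wild-type livers alone, where it is high, so these values do not count as support for a genotype difference. Subunits with signal differed little: Cox4i1 by -0.0013, Cox5a by -0.02 and Cox5b by -0.14. In the ATP synthase Atp5k, the small membrane subunit e, had the largest difference, -0.20 (SE 0.10, adjusted p = 0.467), and its 2 other probe sets gave -0.18 and -0.18. The catalytic Atp5b, the shaft subunit Atp5c1 and the stalk subunit Atp5o differed by -0.03, 0.03 and 0.04.

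In 9 members the 3 liver-null saline livers lay all on one side of the 3 wild-type ones, a share of 10.8% where 15.2% of all genes did so. The 8 lower ones were Ndufa3, Ndufa5, Ndufa13, Sdhd, Cox7a1, Atp5k, Atp5mpl and Ndufaf4, where 8.7% of all genes were lower without overlap, and the 1 higher was Ndufv1, where 6.48% were higher. The precision was enough to bound most members. In 79 of 83 the 95% interval of the difference lay within 1.5-fold in either direction, against 58.4% of all genes, and all 57 members with a mean of at least 10 were among them, against 77.2% of the 610 genes at that level. The members outside were Ndufaf3, Ndufaf4, Sdhaf1 and Cox7a1. Hepatocyte markers were summed to 15.88 to 15.92 in these liver-null livers against 15.97 to 16.04, with 8 of 10 markers negative, and all 8 stellate cell markers were negative. Both brown fat markers tested, Elovl3 and Ppargc1b, were also negative, at -0.80 and -0.57. Endothelial markers were negative in 6 of 7 (median -0.172), Kupffer cell and macrophage markers in 6 of 10 (median -0.048), and both erythroid markers tested (median -0.54) were. Neutrophil and monocyte markers were negative in 2 of 5 (median 0.61) and lymphocyte markers in 1 of 4 (median 0.043). Of 3 pancreas markers tested, Cela1 was called as lower, here, after APAP and averaged over treatments. No other marker was called. The part of these markers in the members' values was not tested, and in whole liver fewer cells of a type and less RNA per cell cannot be told apart.

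**Figure D3:**
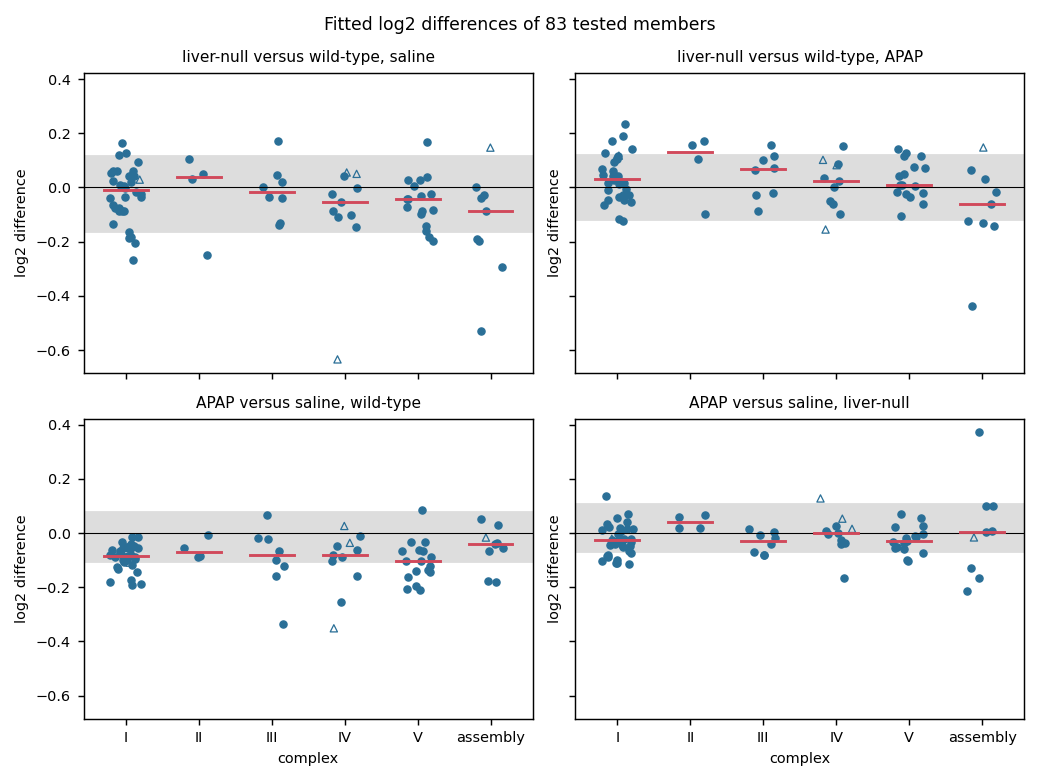
Fitted log2 difference of each of the 83 tested members (points, by complex) in the 4 simple comparisons; open triangles are the 5 members near background, red lines are medians and the grey band runs between the lower and upper quartiles of all 8469 tested genes. Nearly all members lie below zero for APAP in wild-type livers, where 78 of 83 are negative, and they scatter about zero in the other panels.

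The second comparison asks the same of APAP-treated mice. Again 0 of 83 members were called, where 0.768% of all genes were, and 0 members had an unadjusted p under 0.05 against 9.02% of all genes. The members' median was 0.032 beside -0.003 for all genes, with 31 negative (37.3% against 50.7% of all genes). Leaving out liver-null mouse 17 left 23 negative, and other single omissions gave up to 45. Complex II had the highest median, 0.13, from Sdha (0.17, SE 0.10, adjusted p = 0.731), Sdhb (0.16), Sdhc (0.10) and Sdhd (-0.10). Sdha read 10.19, 10.38 and 10.31 in wild-type APAP livers and 10.41, 10.54 and 10.44 in liver-null APAP livers, so that the groups did not overlap. Its other probe set gave 0.28.

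In complex I the largest difference was that of Ndufs1, which carries several of the iron-sulfur clusters. It read 9.23, 9.44 and 9.15 in wild-type APAP livers and 9.55, 9.57 and 9.40 in liver-null APAP livers, a difference of 0.23 (SE 0.12, adjusted p = 0.628) with 1 liver-null mouse inside the wild-type range. Ndufv1 differed by 0.17 and Ndufs3 by 0.09. Uqcr11 of complex III differed by 0.16, Atp5g2, which encodes the c ring's subunit, by 0.14, and in complex IV the near-background Cox7a1 by -0.16 and Cox8a by 0.15. In 7 members the groups did not overlap, all higher in liver-null livers (Ndufa9, Ndufa10, Ndufab1, Sdha, Sdhb, Uqcr11 and Atp5b), where 6.97% of all genes were higher without overlap. The interval lay within 1.5-fold for 80 of 83 members against 61.6% of all genes.

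Averaged over both treatments, with 6 livers a genotype, 0 of 83 members were called where 4.46% of all genes were. At an unadjusted p under 0.05 there were 4 members against 17% of all genes: Cox7a1 at -0.39 (SE 0.12, adjusted p = 0.102), Ndufv1 at 0.17 (SE 0.08, adjusted p = 0.287), Ndufa9 at 0.16 (SE 0.07) and Sdhd at -0.17 (SE 0.08). Array weights called Cox7a1, Ndufv1 and the complex II assembly factor Sdhaf1 (-0.44, adjusted p = 0.029), and leaving out wild-type saline mouse 10 called Cox7a1 alone (-0.47, adjusted p = 0.0422). The weights ran from 0.36 for wild-type saline mouse 10 to 4.63 for wild-type saline mouse 9, so the weighted calls leaned on few livers. For Cox7a1 the limit given in the saline comparison holds here too. The median over members was -0.002. The difference had the same sign under saline and under APAP, 2 comparisons that share no array, in 62 of 83 members (74.7%) and in 66.8% of all genes. Of the other 21 members, 20 were negative under saline and positive under APAP.

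**Figure D4:**
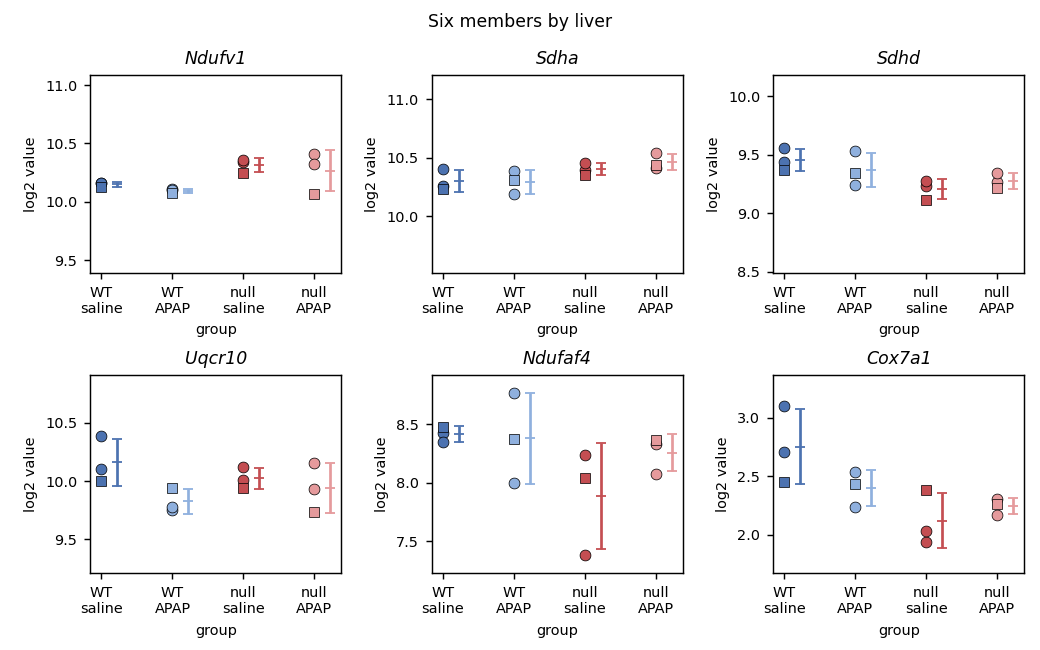
Log2 values of 6 members by group, with each point 1 liver, squares the lower-quartile arrays and bars the mean and SD of 3 livers; every panel spans the same height on the log2 scale. Liver-null saline livers lie above the wild-type saline livers for Ndufv1 and below them for Sdhd, and Uqcr10 is lower in all 3 wild-type APAP livers than in the 3 wild-type saline livers.

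The third comparison asks what APAP does to these transcripts at 8 h in wild-type liver. No member and no gene of the array passed the test (0 of 83, background 0.0%), and 1 member, Uqcr10, had an unadjusted p under 0.05 against 1.69% of all genes. The members' differences were small and nearly all of 1 sign. Their median was -0.083, a level 5.58% lower, beside -0.017 for all genes, and 78 of 83 (94.0%) were negative against 55.0% of all genes. Among genes with a mean of at least 10, 96.5% of the 57 members were negative against 60.2% of the 610 genes. The medians there were -0.080 and -0.023. All 34 members of complex I and all 4 of complex II were negative, as were 7 of 8 in complex III, 10 of 11 in complex IV, 16 of 17 in the ATP synthase and 7 of 9 among the assembly factors.

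Uqcr10, a small accessory subunit of complex III, had the largest difference among members with signal. It read 10.10, 10.38 and 9.997 in wild-type saline livers and 9.75, 9.78 and 9.94 in wild-type APAP livers. The groups did not overlap, and the difference was -0.34 (SE 0.14, adjusted p = 1.00), with -0.24 and -0.49 from the gene's other probe sets. In complex IV the near-background Cox7a1 had the largest difference, -0.35 (SE 0.17), with overlapping groups. Cox8a of that complex read 9.51, 9.70 and 9.19 against 9.17, 9.18 and 9.29, where 1 saline liver lay among the APAP livers, and it differed by -0.26 (SE 0.14), with -0.32 from its other probe set. In the ATP synthase the largest was that of Atp5g2, which read 9.33, 9.26 and 8.95 against 9.07, 8.95 and 8.90, with overlap and a difference of -0.21 (SE 0.13). Atp5k read 10.68, 10.74 and 10.66 against 10.45, 10.43 and 10.59 without overlap, a difference of -0.21 (SE 0.10). In complex I the largest difference was again that of Ndufa6, -0.19 (SE 0.11), and in complex II that of Sdhb, -0.09 (SE 0.10). The core subunits Ndufv1, Ndufs1, Ndufs3, Uqcrc1, Uqcrfs1, Cox4i1, Cox5a, Atp5b and Atp5c1 had differences between -0.08 and -0.01, and Uqcrc2 had 0.07, with -0.06 from its other probe set. The core subunit Atp5o read 10.38, 10.34 and 10.21 against 10.15, 10.21 and 10.26, with overlap. Its other probe set read 9.30, 9.68 and 10.30 against 9.24, 9.74 and 10.23, with overlap. Cox5b read 11.46, 11.46 and 11.36 against 11.39, 11.27 and 11.37, also with overlap.

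In 15 members (18.1%) all 3 wild-type APAP livers lay below all 3 saline livers, where 2.79% of all genes did so. They were Ndufa3, Ndufa5, Ndufa13, Ndufab1, Ndufb7, Ndufb8, Ndufb9, Ndufs7 and Ndufv1 of complex I, Uqcr10, Cox6b1, and Atp5d, Atp5e, Atp5h and Atp5k of the ATP synthase. Each gene was read from its probe set with the highest mean. At a further probe set the groups overlapped for Ndufa3, Ndufa5, Cox6b1, Atp5d, Atp5h and Atp5k. For Ndufab1 and Atp5k a further probe set with signal showed no overlap. Further probe sets of Ndufb7, Ndufb9, Ndufs7, Ndufv1 and Uqcr10 were not compared for overlap here. The mean deviation of the complex I members was 0.005 to 0.073 in the wild-type saline livers and -0.050 to -0.045 in the wild-type APAP livers. Among the arrays outside the lower-quartile set the median over members was -0.106 with 77 of 83 negative (2 livers against 2), and between the lower-quartile arrays it was -0.031 with 56 of 83 negative (1 against 1). No cell type marker passed the test in this comparison. Stellate cell markers were negative in 7 of 8 (median -0.178), endothelial markers in 5 of 7 (median -0.082), and both erythroid markers tested (median -0.23) and both brown fat markers tested (median -0.35) were negative, while 4 of 10 hepatocyte markers (median 0.015), 3 of 10 Kupffer cell and macrophage markers (median 0.051) and 2 of 5 neutrophil and monocyte markers (median 0.49) were. The summed stellate level was 9.97 to 10.32 in saline livers and 9.97 to 10.22 in APAP livers, and the summed hepatocyte level was 15.97 to 16.04 in both. The part of these markers in the members' shift was not tested. These wild-type saline livers are also the control of the first comparison.

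The fourth comparison sets APAP against saline in liver-null livers. No member was called (0 of 83, background 0.0%), and 0 had an unadjusted p under 0.05 against 0.697% of all genes. The median was -0.021 beside 0.019 for all genes, with 51 negative (61.4% against 44.1% of all genes). This count rests on liver-null APAP mouse 17: without it 26 of 83 were negative and the median was 0.032. With arrays centred on their medians it was -0.069 with 71 negative. All 4 complex II members were positive, from 0.02 to 0.07. Ndufa6 differed by 0.14 (SE 0.11), Uqcr10 by -0.08 (SE 0.14), Cox6b1 by -0.17 (SE 0.13) and Atp5g1, another gene of the c ring, by -0.10 (SE 0.10). Ndufs7, an iron-sulfur subunit of complex I, was the only member without overlap, and it was lower, as were 1.71% of all genes. It read 10.05, 10.22 and 10.13 in saline livers and at most 10.04 in APAP livers, with a mean of 10.02 (SD 0.0222, n = 3), a difference of -0.11 (SE 0.09). The gene's other probe set read 9.80, 9.75 and 9.55 against 9.85, 9.70 and 9.63, with overlap and a difference of 0.02.

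Whether APAP acted differently in the genotypes was tested directly by the interaction, and 0 of 83 members were called (background 0.0%), with 0 at an unadjusted p under 0.05 against 1.29% of all genes. The median was 0.071 beside 0.033 for all genes, and it was 0.0075 with arrays centred on their medians. In the main fit 69 members were positive and 14 negative (16.9% negative against 43.2% of all genes). The largest values among members with signal were Ndufaf4 at 0.41 (SE 0.32), Ndufa6 at 0.33 (SE 0.16), Cox8a at 0.26 (SE 0.20) and Uqcr10 at 0.25 (SE 0.20). Intervals were wide here, within 1.5-fold for 72 of 83 members. The 94.0% of members that were negative in wild-type livers and the 61.4% in liver-null livers are therefore not shown to differ. Averaged over genotypes, 0 of 83 members were called (background 0.0%), with 0 at an unadjusted p under 0.05 against 1.20% of all genes. There 73 members were negative (88.0% against 50.8% of all genes), with a median of -0.052 beside -0.002 for all genes.

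The 9 genes outside the finished complexes had the largest median SD of the member groups, 0.253, at a median level of 6.73. This was near the 0.221 of all genes with a mean under 10. Ndufaf4 read 8.42, 8.35 and 8.48 in wild-type saline livers and 7.38, 8.24 and 8.04 in liver-null saline livers. These groups did not overlap, and the difference was -0.53 (SE 0.23, adjusted p = 0.37), with -0.48 from its second probe set. Without mouse 4 it was -0.28 (adjusted p = 0.748). After APAP the values were 7.99, 8.77 and 8.38 against 8.07, 8.33 and 8.37. Sdhaf1, which helps place iron-sulfur clusters in Sdhb, read 6.63, 6.77 and 6.50 in wild-type saline livers and 6.92, 6.27 and 5.82 in liver-null saline livers, with a difference of -0.29 (SE 0.26). After APAP it read 6.87, 6.69 and 6.13 against 6.25, 6.28 and 5.85, with a difference of -0.44 (SE 0.26, adjusted p = 0.732) and overlap between groups. Averaged over treatments, Sdhaf2, which helps attach flavin to Sdha, differed by -0.13, Sdhaf4 by -0.02, Ndufaf1 by -0.11, Ndufaf3 by -0.17, Ndufaf5 by 0.15, Ndufaf7 by -0.0028 and Cox7a2l, a supercomplex factor, by 0.03.

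Neighbouring mitochondrial genes gave few calls. Cycs, the cytochrome c between complexes III and IV, and Cyc1, the cytochrome c1 of complex III, were not called in any comparison. Neither was ND5, the 1 mitochondrially encoded subunit analysed. None of 14 regulators of mitochondrial biogenesis, 26 further assembly factors, 9 carriers and uncoupling proteins, 21 import genes or 74 mitochondrial ribosome genes was called. In wild-type livers after APAP 64 of the 74 ribosome genes and 16 of the 21 import genes were negative, with medians of -0.067 and -0.093, against 55.0% of all genes. Between genotypes in saline livers, with the same wild-type saline control, 57 of 74 and 17 of 21 were negative, against 55.2% of all genes. The medians there were -0.092 and -0.143. Calls were made only for genotype averaged over treatments, where 4.46% of all genes were called (378 of 8469). There Coq7 of coenzyme Q synthesis (1 of 9), Idh2 and Suclg2 of the TCA cycle (2 of 13) and Chdh, which passes electrons from choline to ubiquinone (1 of 8), rose in liver-null livers and none fell. Coq7 read 8.43, 8.40 and 8.18 in wild-type saline livers and 8.93, 8.85 and 8.76 in liver-null saline livers, and its averaged difference was 0.49 (SE 0.08, adjusted p = 0.00536). Idh2 rose by 0.52 (SE 0.11, adjusted p = 0.0183), Suclg2 by 0.42 (SE 0.09, adjusted p = 0.0271) and Chdh by 0.42 (SE 0.08, adjusted p = 0.0183).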

How the data were processed

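The authors deposited 1 table of log2 values for 22690 probe sets on 12 arrays; per the labels' protocols and the submitters' processing notes these are log2 values from RMA, and the sources used here do not give its version or settings. No scanner values were used. Gene symbols came from the platform annotation (20380 with 1 symbol, 691 with several, 1555 with none, besides 64 controls), and those with several or none were left out, 8 of them matching a member's symbol. Testing required a value over the array's own 40th percentile on 3 or more of the 12 arrays. A mean per group was fitted to all 12 arrays with limma 3.58.1 (R 4.3.3; lmFit and eBayes, 8 residual degrees of freedom), two-sided, with Benjamini-Hochberg adjustment over all 8469 genes and a threshold of 0.05. SE and 95% intervals come from that fit. The members and the gene lists were chosen with earlier results of these data known, so counts and medians over them are descriptions, with no test. Named members are those called, the largest difference of each complex in each simple comparison, fixed core subunits, tissue isoforms, assembly factors and members below the filter; Ndufb6, Atp5k after APAP, Cox8a and the members without overlap were named after their values were seen. The script was tested on simulated data with independent normal noise, in which changes were added to all liver-null arrays, saline and APAP. Between liver-null and wild-type saline arrays it called 73% of 100 genes changed 2-fold and 96% of 100 changed 4-fold. It also called 6 unchanged genes. Changes under 2-fold were not simulated, so these shares do not cover the smaller differences of the members. The labels give 3 mice per group with no number shared between groups. Array data have no read depth, and 3 arrays a group limit the precision. Alternatives covered the filter, scaling, choice of probe set, variance prior, array weights, array set, samples in the fit and each array left out.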

Additional observations from a re-analysis of the deposited data

How the results depend on the processing

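Over all alternatives, counts of called members stayed at 0 except in 3 cases, all between genotypes: array weights called 1 member in saline livers (Cox7a1) and 3 averaged over treatments (Cox7a1, Ndufv1 and Sdhaf1), and leaving out wild-type saline mouse 10 called 1 averaged over treatments (Cox7a1); the cause was not tested. Of 5 single-gene values that became called under an alternative, 3 were of Cox7a1, which lies near background. The members' median log2 difference moved by less than 0.061 under each alternative except 1. That limit is the pooled within-group SD, over single arrays, of the members' median deviation. It is not an SD of the difference, and it is larger than several of the medians. The exception was the interaction with arrays centred on their medians, where the median went from 0.071 to 0.0075, and the cause was not tested. With single arrays left out it ranged from -0.058 to -0.007 between genotypes in saline livers, from -0.018 to 0.068 in APAP livers and from -0.031 to 0.028 averaged. For APAP against saline it ranged from -0.115 to -0.060 in wild-type livers, from -0.057 to 0.032 in liver-null livers and from -0.080 to -0.029 averaged, and for the interaction from 0.030 to 0.117. With single arrays left out the sign thus held for APAP in wild-type livers and averaged over genotypes, for genotype in saline livers and for the interaction, and it turned for the other 3; centring arrays on their medians turned it for genotype in saline livers, to 0.003, and averaged over treatments, to 0.004. Negative members in wild-type livers after APAP numbered 71 to 78 of 83 with single arrays left out, 75 with arrays centred on their medians and 75 after quantile normalization. At the level of probe sets, 0 of 148 were called in any comparison, and in 7 of 43 genes with several tested probe sets these differed in sign for APAP in wild-type livers, against 18 of 43 for genotype in saline livers. Txnrd1 lost its call in 15 gene-level values, among them the mean over its probe sets. No paired analysis was possible because the groups share no replicate number.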
